A study of Danio rerio with 4 samples.

Results

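RNA of zebrafish heads was compared between noc4l mutants and their siblings at 5 days post fertilization (dpf). The comparison takes in every gene with at least 100 counts over both RNA-seq libraries, which left 17243 of the 26662 gene IDs in the deposited RNA table, and it uses 2 of the 4 libraries of the study. The other libraries hold ribosome-protected fragments (footprints) of separately collected heads and serve here as a further readout of the same genes. Both genotypes came from the AB strain. The mutants are homozygous for a small CRISPR/Cas9 deletion that ends the reading frame of noc4l prematurely. The other group is called siblings by the study and WT by the labels, and siblings of such mutants can include carriers of 1 mutant copy. Each genotype has 1 RNA-seq library made from poly(A) RNA, and the sources used here do not give how many heads were pooled in it. No replicate check is possible, no test was made, and all intervals are 95% intervals that cover counting error only.

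Noc4l belongs to the small-subunit processome, the large nucleolar assembly in which the precursor of the small ribosomal subunit is transcribed, folded and cut. Cells of the developing brain, jaw, eye and gut grow fast and depend on new ribosomes, and zebrafish that lack assembly factors often have small heads, small eyes and poorly grown digestive organs. A head library contains brain, eye, jaw skeleton, jaw and eye muscle, skin, pigment cells and blood, and as dissected here also RNA of digestive organs. A lower level of a marker gene in such a mixture can come from fewer cells of a type or from less RNA per cell, and these cannot be told apart.

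The targeted gene noc4l had 443 and 45 counts, sibling first, and the log2 ratio, mutant over sibling, was -3.58 (-4.07 to -3.15). The libraries held 15018488 and 17395024 estimated counts and were scaled by TMM, which places the typical gene near 0 (median log2 ratio 0.0095). A gene is called higher or lower in mutants at a ratio of 2 or more, a rule of size and not a test. Of all measured genes, 541 were higher (3.14%) and 1062 were lower (6.16%). Markers of pancreas, liver and intestine made up 107 of the lower genes and 3 of the higher, and their share of all counts was 5.69% in the sibling and 2.04% in the mutant library. The other 17105 genes held 538 of the higher and 955 of the lower genes, and they are the subject here. They were read in 79 lists by tissue, cell type and pathway, with 3188 measured genes, and members that also mark digestive organs were left out of the lists. The lists were chosen with earlier results of these data known, so their shares of called genes are descriptions only. Numbers of called members in a list are to be read beside the 3.14% higher and 6.16% lower of all genes. Scaling by total counts instead adds 0.08 to every log2 ratio, and the lower genes cryaa, mybpc2a, phospho1, slc40a1, ptprc, cldnd1a, foxi3a, hmgcs1, rpl10a and ddt, all described below, were then inside 2-fold. In each pair of counts, the sibling library comes first. Footprints were also scaled by TMM, with factors further from 1 (0.781 for the sibling and 1.28 for the mutant library). Scaling by total counts would raise every footprint ratio by more than it raises RNA ratios. No other footprint scaling was tried. Signs of footprint ratios, the numbers of genes past 2-fold in footprints, and differences between footprint and RNA medians therefore depend on this choice.

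**Figure D1:**
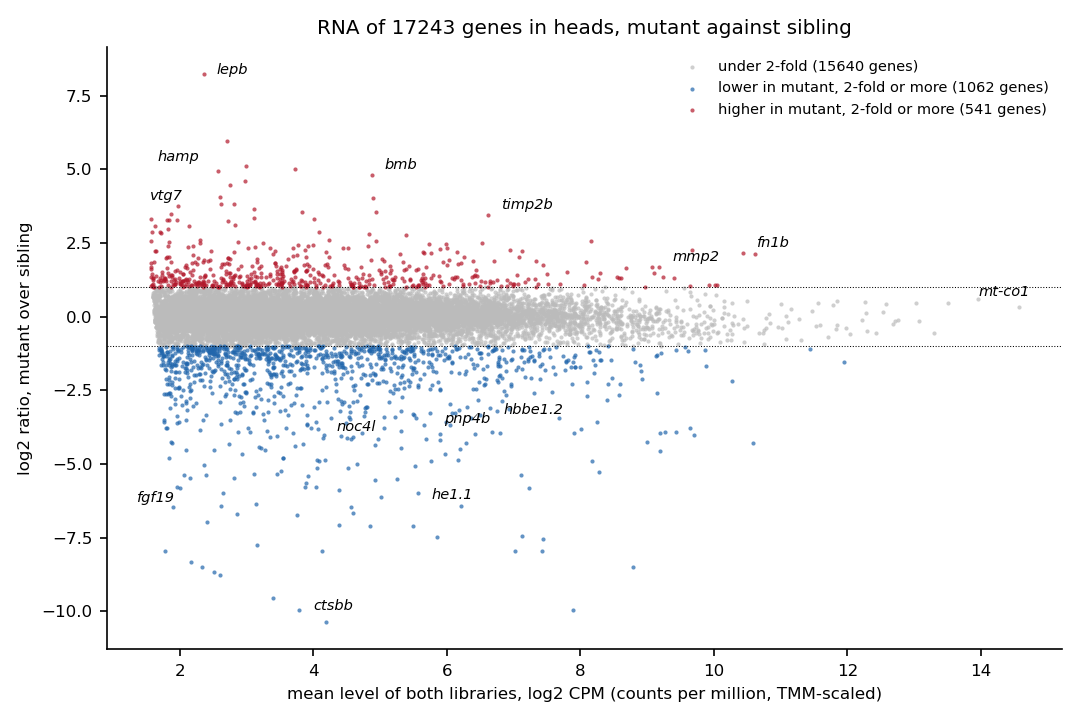
Each point is 1 of 17243 genes. The horizontal axis is the mean level of both libraries in log2 CPM (counts scaled to library size), the vertical axis is the log2 ratio of mutant to sibling, and dotted lines mark a 2-fold difference. The 541 higher genes are red and the 1062 lower genes blue, and lepb (8.23) and ctsbb (-9.95), each with 0 counts in 1 library and placed by the 0.5 added, lie among the extremes.

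Transcript length moved with the RNA ratio, and its part in the results below was not tested. Genes whose counts and FPKM imply a transcript under 500 nt had a median log2 ratio of -0.38, those of 1000 to 2000 nt had -0.02, and those over 10000 nt had 0.09. In footprints the order ran the other way, from 0.15 for the shortest to -0.09 for the longest. Centring the RNA ratios on genes of like length gave 550 higher and 1050 lower genes, of which 513 and 1013 were shared with the uncentred calls. Lists of short genes, such as ribosomal proteins, globins, lens crystallins and respiratory chain subunits, are therefore given with their centred median as well.

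**Figure D2:**
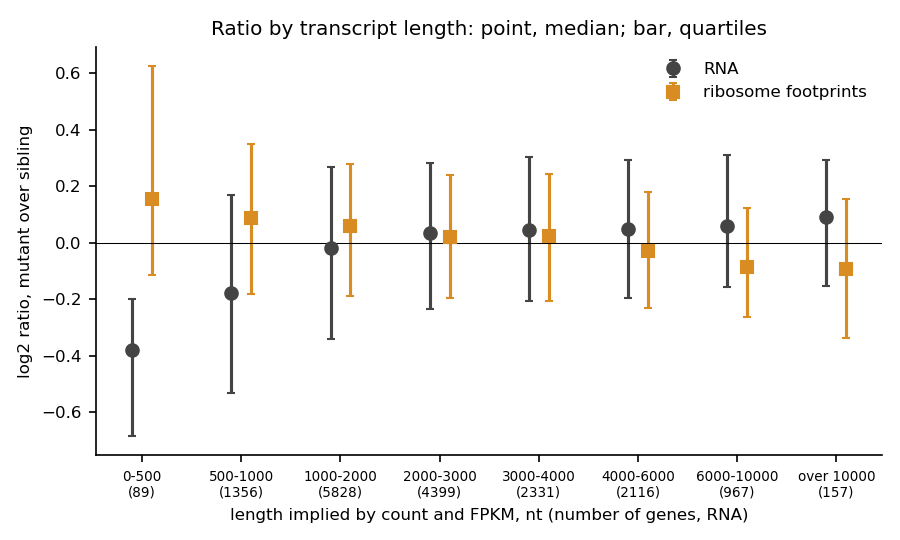
Median log2 ratio of mutant to sibling (vertical axis) for genes in 8 classes of transcript length in nt (horizontal axis), with bars from the lower to the upper quartile of the genes in each class. RNA (circles) goes from -0.38 in the shortest class to 0.09 in the longest, and footprints (squares) from 0.15 to -0.09.

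Genes of mature neurons had nearly the same RNA level in both genotypes relative to the other genes of each library. The scaled ratios do not measure RNA or neurons per head, and the study reports smaller heads and weaker HuC:eGFP signal in mutants. None of the 49 measured genes of the synapse passed the size rule (median 0.07), none of the 22 genes of glutamate signalling (median 0.02) and none of the 23 genes of GABA and glycine signalling (median 0.05). elavl3, the pan-neuronal RNA-binding protein HuC, had 2708 and 3220 counts, a log2 ratio of -0.04 (-0.12 to 0.03). snap25a, a SNARE protein of synaptic vesicle release, had 5510 and 6125 counts and a ratio of -0.14 (-0.19 to -0.09), which is inside 2-fold. tuba1c, a tubulin gene of neurons, had 9334.1 and 11862.5 counts and 0.05 (0.01 to 0.09). The exception among 36 genes of the neuronal cytoskeleton was stmn1a, a stathmin that destabilises microtubules in dividing and young cells, with 1527 and 513 counts and a log2 ratio of -1.87 (-2.01 to -1.72). Its paralog stmn1b, with 5962 and 6385 counts, had -0.20 (-0.25 to -0.14). mao, the monoamine oxidase that degrades serotonin and dopamine, had 3199 and 1502 counts and a ratio of -1.38 (-1.47 to -1.30), while its footprints had -0.08.

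Genes of dividing and patterned neural tissue had slightly negative medians, and few passed 2-fold. Of 61 transcription factors that mark brain regions, 0 passed the size rule and 16 were above 0 (median -0.25). pax2a, a factor of the midbrain-hindbrain boundary, had 211 and 218 counts, a log2 ratio of -0.25 (-0.53 to 0.03). The study reports weaker pax2a staining in mutant brains at an earlier stage, a different measure from scaled RNA of whole heads. Among 33 progenitor genes (median -0.26) 1 was lower, sox4b with -1.09 (-1.31 to -0.87), and 1 was higher, lin28a, the RNA-binding protein that keeps cells in an early developmental state, with 25 and 133 counts and 2.09 (1.49 to 2.80). Of 34 genes of radial glia, the stem cells of the fish brain, 1 was higher and 1 lower (median -0.04). glula, the glutamine synthetase, had 7615 and 9052 counts and -0.04 (-0.09 to 0.00). The lower member was her15.2, a target of Notch, with 94.3 and 37.6 counts and -1.61 (-2.21 to -1.06). The higher one was nes, the intermediate filament nestin of neural and muscle precursors, with 132 and 848 counts, 5.22-fold higher in mutants (4.36 to 6.34), and its footprints had a log2 ratio of 0.84.

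Myelinating glia had lower RNA of several structural genes. Of 25 genes of oligodendrocytes and Schwann cells, 4 were lower, 0 were higher and 3 lay above 0 (median -0.31). The share of lower genes, 16%, stands beside 6.16% of all genes. mpz, the adhesive protein of compact myelin, had 358 and 135 counts, a log2 ratio of -1.70 (-2.0 to -1.41) in RNA and -1.53 in footprints. mbpa, a myelin basic protein, had 1213 and 609 counts and a ratio of -1.29 (-1.43 to -1.15). fa2h, the hydroxylase that makes myelin galactolipids, had 1233 and 672 counts and -1.17 (-1.31 to -1.03). The paralog mbpb (-0.10 (-0.21 to 0.01)) and olig2, the transcription factor of the lineage (-0.09 (-0.45 to 0.27)), were inside 2-fold. For olig2 the study reports weaker staining in mutant brains at an earlier stage.

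Several hormone genes of pituitary and hypothalamus were higher in mutant RNA. Of 7 measured pituitary genes 2 were higher and 0 lower (median 0.66), and of 28 neuropeptide genes 3 were higher and 0 lower (median -0.14, 20 below 0). In footprints 1 of the 7 pituitary genes and 0 of the 28 neuropeptide genes were higher, and 0 were lower. prl, which encodes prolactin, a regulator of ion balance in fish, had 31 and 146 counts, a log2 ratio of 1.92 (1.37 to 2.55) in RNA and 1.60 in footprints. pomca, the precursor of adrenocorticotropic and melanocyte-stimulating hormone, had 51 and 156 counts and 1.31 (0.85 to 1.80). cart3, a neuropeptide of the cocaine- and amphetamine-regulated transcript family, had 29 and 126 counts and 1.81 (1.23 to 2.46). Growth hormone gh1, with 140 and 272 counts, had 0.66 (0.36 to 0.97) and did not reach 2-fold. These genes are of low abundance in heads, and their intervals are correspondingly wide.

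**Figure D3:**
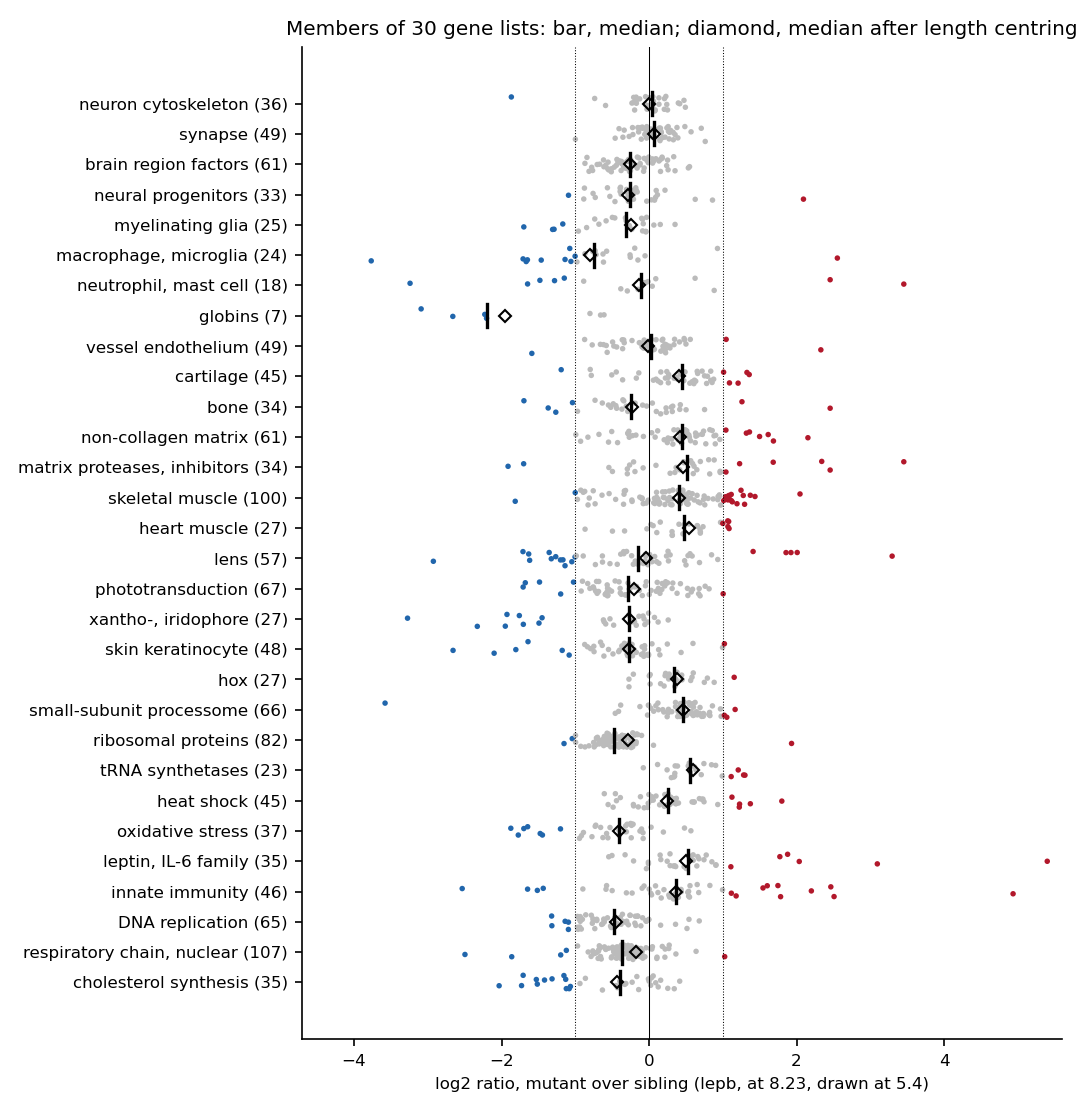
Each point is a measured member of 1 of 30 gene lists, with the number of members in parentheses, and the horizontal axis is the log2 ratio of mutant to sibling. Red and blue points are past 2-fold, bars mark the median and open diamonds the median after centring on transcript length. Synapse genes gather around 0 (median 0.07), globins lie to the left (median -2.20) and matrix proteases and their inhibitors to the right (median 0.52).

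In the eye, most photoreceptor genes were inside 2-fold. Vertebrate photoreceptors detect light with opsins, pass the signal through transducin to a phosphodiesterase, and are reset by arrestins and by guanylate cyclase with its activators. Of 7 measured visual opsins 1 was higher and 0 were lower. opn1mw2, a green cone opsin, had 59 and 535 counts and was 7.34-fold higher (5.64 to 9.85). The red cone opsin opn1lw2, with 6369.0 and 14408 counts, had a log2 ratio of 0.88 (0.84 to 0.93), and the ultraviolet cone opsin opn1sw1, with 13871 and 12734 counts, had -0.42 (-0.45 to -0.38). Opsins are close paralogs in tandem, and the sources used here do not give how shared reads were assigned among them.

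Of 67 further phototransduction genes, 5 were lower (7.46%, beside 6.16% of all genes) and 1 was higher (median -0.28). arr3b, a cone arrestin, had 6303 and 2761 counts, a log2 ratio of -1.48 (-1.55 to -1.42). pde6ha, the inhibitory subunit of cone phosphodiesterase, had 3748.8 and 1436.5 counts and -1.68 (-1.77 to -1.59). guca1a, an activator of guanylate cyclase, had 110 and 41 counts and -1.71 (-2.27 to -1.19). The catalytic subunit pde6c, with -0.09 (-0.14 to -0.04), and cone transducin gnat2, with -0.39 (-0.44 to -0.35), were inside 2-fold. Footprints of arr3b (-0.34), pde6ha (-0.12) and guca1a (-0.02) were inside 2-fold as well. Among 36 genes of the visual cycle and pigment epithelium, 4 were lower (11.1%, beside 6.16% of all genes) and 0 higher. The lower ones included bco1, which cleaves beta-carotene into retinal (1226 and 461 counts, -1.70 (-1.86 to -1.55)), and dhrs9, a retinol dehydrogenase (749 and 193 counts, -2.25 (-2.49 to -2.02)). Digestive markers were lower as given above, and the part of digestive organs in these 2 genes was not tested. Of 35 members with enough footprints 1 was higher and 1 lower (median 0.28). rpe65a, the isomerase of the pigment epithelium, had 6202 and 5686 counts and -0.42 (-0.47 to -0.37).

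Lens genes went in both directions. Of 57 measured genes, most of them crystallins, the refractive proteins of lens fibre cells, 12 were lower and 5 higher (median -0.15, centred on length -0.04 with 8 lower and 5 higher). crygm2d8, a gamma-crystallin, had 5682.9 and 2130.8 counts, a log2 ratio of -1.71 (-1.78 to -1.64) in RNA and -2.95 in footprints. grifin, a lens galectin, had 275 and 44 counts and -2.92 (-3.43 to -2.47), with -2.99 in footprints. cryaa, the chaperone alpha-A crystallin, had 543 and 332 counts and -1.0 (-1.21 to -0.80), at the edge of the size rule. Higher members were of lower abundance in siblings. crygm7 had 10 and 126 counts and 3.30 (2.43 to 4.46), crygm2c had 38 and 189.6 counts and 2.01 (1.52 to 2.57), and their footprints had 3.39 and 3.11. Over 55 lens genes with enough footprints the median was -1.02 in footprints against -0.15 in RNA, with 28 lower and 5 higher. Gamma-crystallins are near-identical copies, so values of single copies are uncertain where reads could be shared.

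Muscle genes had mostly positive log2 ratios in RNA and negative medians in footprints, as each assay was scaled here. Sarcomeres are built from actin and myosin filaments held by the giant protein titin, and contraction is triggered by calcium released through ryanodine receptors. Of 100 skeletal muscle genes 17 were higher and 2 lower (median 0.41, 75 above 0), and the list took 5.66% of sibling and 7.74% of mutant counts. Of all genes, 3.14% were higher and 6.16% lower. ttn.1, a titin gene, had 9652 and 25050 counts, a log2 ratio of 1.08 (1.05 to 1.12) in RNA and -0.89 in footprints. ryr1b, a ryanodine receptor of fast muscle, had 711 and 2260 counts and 1.37 (1.25 to 1.50), with -0.75 in footprints. jph2, a junctophilin that couples the membrane to the calcium store, had 1422 and 4722 counts and 1.44 (1.35 to 1.52). smyd1a, a methyltransferase that assists myosin folding, had 1348 and 4059 counts and 1.30 (1.21 to 1.39), and trim55a, a ubiquitin ligase of the sarcomere, had 73 and 372 counts and 2.05 (1.69 to 2.44). The most counted members were inside 2-fold. actc1b, an alpha-actin, had 142065 and 242019 counts and 0.47 (0.47 to 0.48), and the parvalbumin gene pvalb2, for a calcium buffer of fast muscle, had 82463 and 111754 counts and 0.14 (0.13 to 0.16). The lower members were tnni2a.1, a fast troponin I, with -1.81 (-1.99 to -1.64), and mybpc2a, a myosin-binding protein, with -1.0 (-1.19 to -0.81).

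Of 19 myosin heavy chain genes, myh6 of the atrium was higher (154 and 400 counts, 1.08 (0.81 to 1.36)) and myhc4 of fast muscle lower (254.5 and 43.9 counts, -2.82 (-3.33 to -2.36)), while the abundant myhz1.1 had 182301 and 342482 counts and 0.62 (0.61 to 0.62). Of 27 heart genes 5 were higher and 0 lower (median 0.47), although acta1b, smyd1b and ttn.2 among the 5 are also expressed in skeletal muscle. In footprints, the skeletal muscle list had 0 higher and 17 lower of 93 genes (median -0.46) and the heart list 0 higher and 6 lower of 23 (median -0.52). The heads for footprints were collected separately. The parts of tissue content and of footprint scaling in this difference were not tested. Among 27 hox genes, which mark hindbrain and trunk levels, 1 was higher, hoxb8a with 155 and 424 counts and 1.15 (0.89 to 1.43), and 24 were above 0 (median 0.34).

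Cartilage genes had mostly positive log2 ratios relative to the other genes of each library, and several genes of mineralised bone were lower. These scaled ratios do not measure RNA or cartilage per head. The jaw of a larva begins as cartilage of collagen type II and aggrecan, on and beside which osteoblasts lay down bone of collagen type I. Of 45 cartilage genes 5 were higher, 1 was lower and 37 had ratios above 0 (median 0.45), with 0.5% of sibling and 0.741% of mutant counts. acana, which encodes aggrecan, the large proteoglycan of cartilage, had 411 and 1266 counts, a log2 ratio of 1.33 (1.17 to 1.49) in RNA and 1.10 in footprints. matn1, a matrilin that links collagen to proteoglycans, had 4849 and 11986 counts and 1.01 (0.96 to 1.06). col2a1a, the collagen type II chain, had 15236 and 25537 counts and 0.45 (0.42 to 0.48), inside 2-fold. The study reports weaker col2a1a staining of the ceratobranchial cartilage in mutants at an earlier stage. It also reports fewer ceratobranchial cartilages in mutants at the stage used here. Both are different measures from scaled RNA of whole heads. nkx3-2, a factor that keeps chondrocytes immature and marks the jaw joint, had 77 and 219 counts and 1.21 (0.83 to 1.61). The lower member was prg4b, a lubricant of joint surfaces, with 232.7 and 124.8 counts and -1.19 (-1.52 to -0.87).

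Of 34 bone genes 4 were lower and 2 higher (11.8% and 5.88%, beside 6.16% and 3.14% of all genes, median -0.24). scpp5, a calcium-binding phosphoprotein of teeth and scales, had 466 and 176 counts and -1.70 (-1.96 to -1.45), with -1.72 in footprints. phospho1, the phosphatase that starts mineralisation, had 146 and 87 counts and -1.04 (-1.44 to -0.65), and ifitm5, a membrane protein of osteoblasts, had 158.2 and 74.9 counts and -1.37 (-1.79 to -0.97). The collagen type I gene col1a1a had 20373 and 18296 counts and -0.45 (-0.48 to -0.42). The higher members were mmp9, described with the proteases, and mef2ca, a transcription factor of jaw and muscle development, with 635 and 1866 counts and 1.26 (1.13 to 1.39). Of 42 genes of neural crest and pharyngeal arches, 2 were higher and 1 was lower (median 0.0021). These are 4.76% and 2.38%, beside 3.14% higher and 6.16% lower of all genes. crestin, a transcript of neural crest, had 53 and 253 counts and 1.95 (1.53 to 2.42), prrx1a, a factor of arch mesenchyme, 717 and 1828 counts and 1.06 (0.93 to 1.18), and foxe1, a factor of pharynx and thyroid, 110 and 62 counts and -1.12 (-1.59 to -0.66).

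Matrix proteins other than collagens, and the enzymes that remodel matrix, had larger shares of higher genes (11.5% and 17.6%) than the whole table (3.14%). These lists were chosen with earlier results of the same data known, so the shares are a description only. Fibronectin and laminin form the provisional matrix on which cells move, collagens are hydroxylated and chaperoned before secretion, and metalloproteases cut all of these under control of their tissue inhibitors. Of 61 such genes 7 were higher and 0 lower (median 0.44), and of 34 metalloproteases and inhibitors 6 were higher and 2 lower (median 0.52). fn1b, a fibronectin, had 7405 and 40426 counts, 4.45-fold higher (4.34 to 4.57), with an FPKM of 58.4 in siblings and 274 in mutants. efemp2a, a fibulin of elastic fibres, had 355 and 1403 counts and a log2 ratio of 1.69 (1.52 to 1.86). serpinh1b, the collagen chaperone Hsp47, had 299 and 1125 counts and 1.62 (1.43 to 1.81), and p4ha1b, a prolyl hydroxylase of collagen, 204 and 644.1 counts and 1.36 (1.14 to 1.60). Footprints of these members were also higher, with 1.45 for fn1b, 1.33 for efemp2a, 1.34 for serpinh1b and 1.49 for p4ha1b.

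mmp2, the gelatinase of stromal cells, had 4011 and 15805 counts and was 3.21-fold higher (3.1 to 3.33). mmp9, the gelatinase of inflamed tissue and of osteoclasts, had 238 and 1604 counts and was 5.49-fold higher (4.79 to 6.33). mmp14b, a membrane protease that activates Mmp2 protein, had 1208 and 3053 counts and a log2 ratio of 1.04 (0.95 to 1.14). timp2b, an inhibitor that also takes part in that activation, had 238 and 3206 counts, and its footprints had a log2 ratio of 2.39 (2.17 to 2.63). adamts8a, a protease with thrombospondin repeats, had 62 and 388 counts and 2.34 (1.96 to 2.76). Of 33 collagen genes outside the cartilage list, 2 were higher and 0 lower (median -0.16). These were col12a1a, a collagen that decorates fibrils in fascia and tendon, with 3208 and 9717 counts and 1.30 (1.25 to 1.36), and col28a2a with 300 and 1100 counts and 1.58 (1.40 to 1.77).

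**Figure D4:**
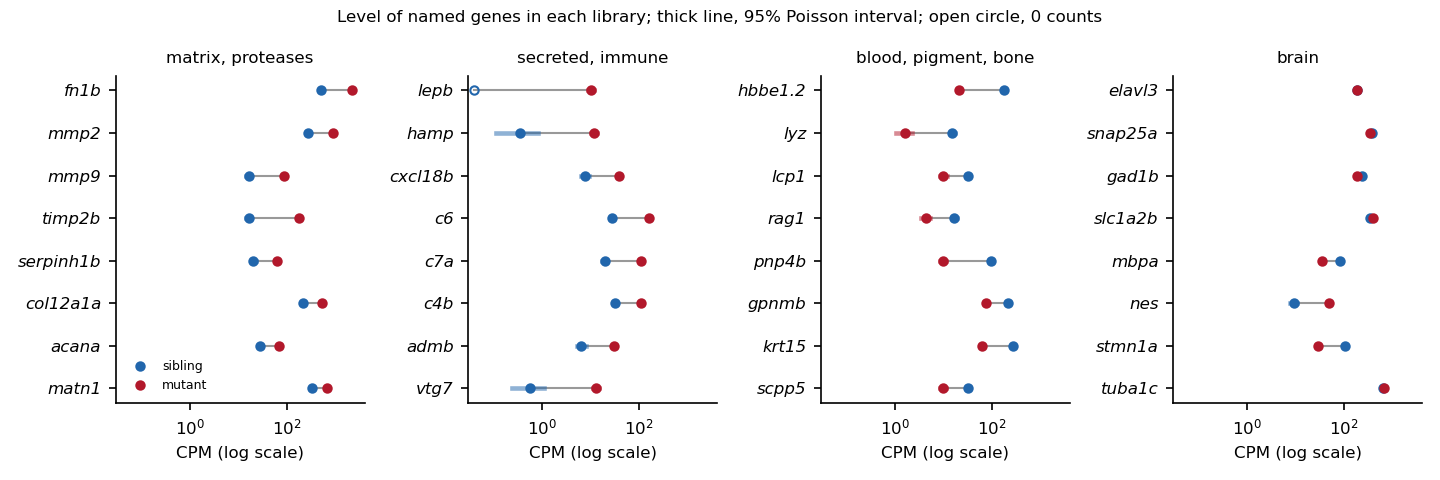
Level of 32 named genes in the sibling (blue) and mutant (red) library in CPM on a log axis, in 4 panels by tissue. Thick lines are 95% Poisson intervals, often narrower than the point, and the open circle is a library with 0 counts. fn1b, mmp9 and timp2b lie to the right in mutants, hbbe1.2, lyz and pnp4b to the left, and elavl3 and tuba1c at nearly the same place.

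Several red blood cell genes were lower in mutants. Larval erythrocytes carry embryonic alpha- and beta-globins. Of 7 measured globin genes 4 were lower, 0 were higher and 0 lay above 0 (median -2.20, centred on length -1.96), and their counts were 0.114% of the sibling and 0.0502% of the mutant library. hbbe1.2, a beta-globin, had 2627.5 and 377.9 counts, a log2 ratio of -3.09 (-3.25 to -2.94) in RNA and -1.47 in footprints. hbae1.3, an alpha-globin, had 2623.4 and 686.8 counts and -2.23 (-2.35 to -2.11). hbbe1.1, the most counted globin, had 5557.3 and 3910.9 counts and -0.80 (-0.86 to -0.74). Of 36 other genes of red cells, heme and iron, 4 were lower, 1 was higher and 11 lay above 0 (median -0.36). The shares of 11.1% lower and 2.78% higher stand beside 6.16% and 3.14% of all genes. slc4a1a, the anion exchanger band 3 of the erythrocyte membrane, had 547 and 227 counts and -1.56 (-1.79 to -1.34), and hemgn, a nuclear protein of erythroid cells, 253.5 and 76.7 counts and -2.01 (-2.41 to -1.64). slc40a1, the iron exporter ferroportin, had 2089 and 1231 counts and -1.06 (-1.16 to -0.95), and tspo, a mitochondrial membrane protein that binds porphyrins, had 629 and 364 counts and -1.08 (-1.27 to -0.89), but -0.84 after centring on length. The higher member was hamp. It encodes hepcidin, the liver hormone that removes ferroportin from the cell surface and is also induced in inflammation, and had 5 counts in the sibling library (Poisson interval 1.62 to 11.7) and 206 in the mutant library, 30.6-fold higher (14.2 to 105).

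Many leukocyte markers were lower in RNA. Of 24 macrophage and microglia genes 9 were lower and 1 was higher (37.5% and 4.17%, beside 6.16% and 3.14% of all genes, median -0.75). Of 18 members with enough footprints 2 were lower and 0 higher in footprints (median -0.16). lcp1, the actin-bundling protein L-plastin of all leukocytes, had 483 and 181 counts, a log2 ratio of -1.71 (-1.96 to -1.46) in RNA and -1.92 in footprints. coro1a, a coronin of leukocytes, had 429.9 and 165.8 counts and -1.67 (-1.94 to -1.41), and ptprc, the leukocyte phosphatase CD45, had 104 and 61 counts and -1.06 (-1.54 to -0.59). apoeb, an apolipoprotein that microglia and other glia make, had 26187 and 30926 counts and -0.05 (-0.08 to -0.03). The exception was mpeg1.2, a perforin-like gene of macrophages, with 130 and 939 counts, 5.87-fold higher (4.9 to 7.13), while its footprints had a log2 ratio of 0.65.

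Of 18 neutrophil and mast cell genes 5 were lower and 2 higher, and the higher ones were mmp9 and timp2b, which other cells also express. Of 15 members with enough footprints 3 were higher and 1 was lower in footprints (median -0.12). lyz, the lysozyme of neutrophils and macrophages, had 225.9 and 28.9 counts and was 9.45-fold lower (6.49 to 14.7). ncf1 and cybb, subunits of the oxidase that makes superoxide in phagocytes, had 128 and 56 counts and 152.0 and 76.4 counts, with log2 ratios of -1.48 (-1.97 to -1.02) and -1.28 (-1.70 to -0.88). In the thymus and lymphoid list of 9 measured genes, 2 were lower and 2 higher (median -0.18). rag1, a recombinase of antigen receptor genes, had 248 and 78 counts and -1.96 (-2.35 to -1.59), and ccr9a, a homing receptor of thymocytes, had 214 and 97 counts and -1.43 (-1.80 to -1.08). The higher ones were ccl25a, a chemokine ligand of that receptor family, with 30 and 87 counts and 1.23 (0.63 to 1.89), and tnfrsf9a, a receptor of the tumour necrosis factor family, with 28 and 104 counts and 1.58 (0.99 to 2.26). myb (cmyb), a transcription factor of blood stem cells, had 332 and 352 counts and -0.21 (-0.43 to 0.01), and 0 of 10 progenitor genes passed the size rule. At an earlier stage the study reports a slight decrease of cmyb staining in caudal haematopoietic tissue and loss of rag1 staining in the thymus. Both are different measures from scaled RNA of heads, and the caudal tissue lies outside the head.

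Several secreted factors of inflammation were higher. Of 46 genes of innate immunity 10 were higher and 4 lower (21.7% and 8.70%, beside 3.14% and 6.16% of all genes, median 0.36). The complement gene c6 (ENSDARG00000057113 of the IDs with this symbol), part of the pore that complement builds in membranes, had 399.9 and 2794.5 counts and a log2 ratio of 2.51 (2.36 to 2.67). c7a, of the same pore, had 283 and 1919 counts and 2.47 (2.29 to 2.65), and c4b, of the classical pathway, had 469 and 1982 counts and 1.78 (1.64 to 1.93). The liver complement gene c3b.1 was in contrast lower, with 1757.7 and 797.2 counts and -1.43 (-1.56 to -1.31). Of 41 measured genes that the deposited annotation places in complement and coagulation, 18 were lower and 3 higher, c4b among them (median -0.51). The liver list held 38 lower genes and 1 higher gene among 59, and their part in the values of plasma protein genes was not tested. ptgs2a and ptges, which make prostaglandin E2 in succession, had 605 and 1609 counts and 97 and 401 counts, with 1.12 (0.98 to 1.25) and 1.75 (1.43 to 2.09). irg1l, an itaconate-producing enzyme known from inflamed skin and macrophages, had 96 and 359 counts and 1.60 (1.28 to 1.95).

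Of 44 genes of cytokines, chemokines and their receptors, 6 were higher and 4 lower (median 0.21). Ligands were among the higher ones. cxcl18b, a chemokine that attracts neutrophils in zebrafish, had 111 and 686 counts, 5.02-fold higher (4.12 to 6.22), csf1a, a growth factor of macrophages and pigment cells, had 73 and 185 counts (1.04 (0.65 to 1.46)), and il34, a ligand of the same receptor, 52 and 135 counts (1.07 (0.61 to 1.57)). Receptors carried by leukocytes were among the lower ones, as cxcr4b had 144 and 56 counts (-1.65 (-2.13 to -1.20)) and cxcr3.2 84 and 39 counts (-1.39 (-1.99 to -0.84)). Not all such genes divided this way. The receptor gene tnfrsf9a, given with the lymphoid genes, was higher, and the cytokine subunit gene ebi3, given with the lowest genes, was lower.

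Several genes of the leptin and interleukin-6 receptor family were higher. These cytokines share the receptor subunit gp130 (il6st), signal through Jak kinases and Stat3, and induce the feedback inhibitor Socs3. Of 35 genes 6 were higher (17.1%, beside 3.14% of all genes), 0 lower and 28 above 0 (median 0.53). socs3b had 435 and 2191 counts, a log2 ratio of 2.04 (1.89 to 2.19) in RNA and 1.07 in footprints. Its paralog socs3a, with 2729 and 5610 counts, had 0.75 (0.68 to 0.81). lifrb, a receptor of leukemia inhibitory factor, had 121 and 509 counts and 1.77 (1.49 to 2.08), and bcl3, a nuclear partner of NF-kappaB and a Stat3 target in mammals, had 13 and 141 counts and 3.10 (2.32 to 4.09). lepb, with 0 and 183 counts, is a leptin that responds to injury and low oxygen in zebrafish, and it was at least 49.8-fold higher with a floor of 3 counts per library.

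Several genes of iridophores and xanthophores were lower. In zebrafish, melanophores make melanin, iridophores hold guanine platelets made by purine synthesis, and xanthophores store pteridines and carotenoids. Of 27 genes of iridophores and xanthophores 8 were lower (29.6%, beside 6.16% of all genes), 0 higher and 3 above 0 (median -0.28). pnp4b, a purine nucleoside phosphorylase gene, had 1424 and 180 counts and was 9.68-fold lower (8.3 to 11.4), and its footprints had a log2 ratio of -5.76 (-7.54 to -4.62). Its paralog pnp4a, the phosphorylase known from iridophores, had 683 and 220 counts and -1.93 (-2.15 to -1.71). gpnmb, a membrane protein of pigment cells and macrophages, had 3185 and 1388 counts and -1.49 (-1.58 to -1.40). xdh, the xanthine dehydrogenase, had 746 and 270 counts and -1.76 (-1.97 to -1.56). Digestive markers were lower as given above, and the part of digestive organs in these pigment list values was not tested. gch2, which starts pteridine synthesis, had 2202 and 2229 counts and -0.28 (-0.36 to -0.19). Of 21 melanophore genes 1 was lower, mc1r, the receptor of melanocyte-stimulating hormone, with 102 and 57 counts and -1.13 (-1.63 to -0.65), while the pigment enzyme gene tyrp1b, with 6868 and 9347 counts, had 0.15 (0.11 to 0.20) and dct, with 2073 and 2334 counts, -0.12 (-0.21 to -0.04).

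Some keratins of the skin were lower and others inside 2-fold. Of 48 genes of keratinocytes 6 were lower and 1 was higher (median -0.28). krt15 had 4002 and 1144 counts, a log2 ratio of -2.10 (-2.20 to -2.01) in RNA and -2.0 in footprints. krt93 had 177 and 34 counts and -2.66 (-3.25 to -2.14), with -5.59 in footprints, and krt97 had 8769.3 and 5076.1 counts and -1.08 (-1.13 to -1.03). The most counted keratin, krt4, had 103862 and 106805 counts and -0.25 (-0.27 to -0.24), and krt5, a marker of basal cells, had 34304 and 31871 counts and -0.40 (-0.42 to -0.38). Keratin genes are similar in sequence, so values of single genes carry the uncertainty of shared reads. Among 35 genes of cell junctions 2 were higher and 2 lower (5.71% each, beside 3.14% higher and 6.16% lower of all genes, median 0.17). The claudin genes cldn7a (229 and 743 counts, 1.40 (1.19 to 1.62)) and cldn1 (88 and 219 counts, 1.02 (0.66 to 1.40)) were higher, and the claudin gene cldn15lb (230 and 110 counts, -1.35 (-1.70 to -1.02)) and cldnd1a, of a claudin-like family (68 and 41 counts, -1.02 (-1.62 to -0.44)), were lower.

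Ionocytes, the skin and gill cells that exchange salts and acid with the water, had lower RNA of several defining genes. Of 37 genes of ionocytes and mucous cells 5 were lower and 2 higher (median -0.19). These are 13.5% and 5.41%, beside 6.16% lower and 3.14% higher of all genes. atp1a1a.4, a sodium pump subunit of ionocytes, had 9822.5 and 4133.4 counts and -1.54 (-1.60 to -1.49). foxi3a and gcm2, transcription factors of the lineage, had 140 and 83 counts (-1.04 (-1.46 to -0.65)) and 229 and 106 counts (-1.40 (-1.75 to -1.07)). rhcga, the ammonia transporter of acid-secreting ionocytes, had 6005 and 3360 counts and -1.13 (-1.19 to -1.07). stc1l, a stanniocalcin hormone that limits calcium uptake, was higher, with 28 and 163.0 counts and 2.23 (1.66 to 2.88), as was slc9a3.1, a sodium-proton exchanger, with 38 and 188 counts and 2.0 (1.50 to 2.56).

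Genes that build ribosomes had RNA above the typical gene, and genes of the ribosome itself below it. Of 66 genes of the small-subunit processome 3 were higher, 1 was lower (noc4l itself) and 58 had ratios above 0 (median 0.46). The higher genes are 4.55%, beside 3.14% of all genes. dnttip2, a processome protein, had 850 and 2342 counts and 1.17 (1.05 to 1.28), and the helicase genes ddx47 and ddx52 had 258 and 658 counts (1.06 (0.85 to 1.27)) and 260 and 648 counts (1.02 (0.81 to 1.24), just inside 2-fold after centring on length). Of 68 genes of large-subunit assembly and RNA polymerase I, 1 was higher, nolc1, a nucleolar scaffold, with 1705 and 4464 counts and 1.09 (1.01 to 1.18) (median 0.32). The nucleolar protein genes npm1a and ncl had 3158 and 5751 counts (0.57 (0.51 to 0.63)) and 9031 and 13902 counts (0.33 (0.29 to 0.37)).

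Of 82 cytosolic ribosomal protein genes 2 had RNA ratios above 0 (median -0.47, centred on length -0.28), and the family took 6.26% of sibling and 4.85% of mutant counts. Footprints of the same 82 genes went the other way, with a median of 0.80, 14 higher and 3 lower. Few genes passed 2-fold in RNA. rps9 had 15721 and 8671.0 counts and -1.15 (-1.19 to -1.11), but -0.91 after centring on length, and rpl10a had 14878 and 8864 counts and -1.04 (-1.08 to -1.0), but -0.80 after centring. rps27l, a paralog that p53 induces in mammals, was higher, with 175 and 821 counts and 1.93 (1.70 to 2.18) in RNA and 2.43 in footprints. Mitochondrial ribosomal proteins (73 genes, median 0.10) and initiation and elongation factors (84 genes, median 0.03) held 0 higher and 0 lower genes. The most counted factor, the elongation factor eef1a1l1, had 175207 and 144809 counts and -0.57 (-0.58 to -0.56).

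Of 23 cytosolic aminoacyl-tRNA synthetases, which load amino acids onto tRNA, 4 were higher, 0 lower and 22 above 0 (median 0.56). The higher ones are 17.4%, beside 3.14% of all genes. iars1, for isoleucine, had 568 and 1717 counts and a log2 ratio of 1.30 (1.16 to 1.44). eprs1, for glutamate and proline, had 2599 and 7753 counts and 1.28 (1.22 to 1.35). farsa, for phenylalanine, had 805 and 2284 counts and 1.21 (1.09 to 1.33), and yars1, for tyrosine, had 1173 and 3114 counts and 1.11 (1.02 to 1.21). Their footprints were inside 2-fold, with 0.42, 0.35, 0.43 and 0.52. In the wider list of 42 genes of the amino acid response, which synthetases partly share, 2 were higher and 2 lower (median 0.25). These are 4.76% each, beside 3.14% higher and 6.16% lower of all genes. Ratios in this list ran from -2.09 to 1.29, so the lowest member lay further from 0 than the highest. The higher ones were sesn2, a sensor of leucine and of stress, with 69 and 208 counts and 1.29 (0.90 to 1.71), and the transcription factor gene atf5b, with 1148 and 2885 counts and 1.04 (0.94 to 1.14). The gene chac1, a widely used readout of Atf4, was inside 2-fold, with 3364.0 and 4146.7 counts and 0.01 (-0.06 to 0.07).

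Stress programmes differed from each other. Of 45 heat shock genes 5 were higher and 0 lower (median 0.25), and 5 of 45 stands against 3.14% of all genes. The inducible chaperone genes hsp70.1, hsp70.2 and hsp70l had 70.3 and 224.6 counts, 112.9 and 325.2 counts and 240.5 and 689.7 counts, with log2 ratios of 1.37 (0.99 to 1.79), 1.23 (0.92 to 1.55) and 1.22 (1.01 to 1.44), and footprint ratios of 2.23, 1.74 and 1.90. These copies are nearly identical and may share reads. The constitutive chaperones hspa8 and hsp90ab1, with 85551.1 and 74847.5 counts and 67114 and 62854 counts, had -0.49 (-0.50 to -0.47) and -0.39 (-0.40 to -0.37). Of 37 genes of the endoplasmic reticulum response 0 were higher and 3 lower (8.11%, beside 6.16% of all genes, median -0.16). The main chaperone of this response, hspa5, had 5111 and 6518 counts and 0.06 (0.00 to 0.11).

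Several genes of defence against oxidants were lower. Of 37 such genes 7 were lower, 0 higher and 4 above 0 (median -0.41, also -0.41 after centring on length). The share of lower genes, 18.9%, stands beside 6.16% of all genes. prdx2, a peroxiredoxin abundant in red cells, had 6618 and 2593 counts and -1.65 (-1.71 to -1.58). sod1, the cytosolic superoxide dismutase, had 2484 and 1118.0 counts and -1.45 (-1.55 to -1.34). gpx4a, a peroxidase of membrane lipids, had 3403 and 1500 counts and -1.48 (-1.56 to -1.39), and mt2, a metallothionein, had 3156 and 1132 counts and -1.77 (-1.87 to -1.67). Footprints of prdx2 (-0.41), sod1 (-0.40), gpx4a (-0.80) and mt2 (-0.39) were inside 2-fold. Several of these genes are strongly expressed in liver or red cells, whose markers were lower as given above, and the part of those cells was not tested.

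Of 48 genes known to respond to low oxygen, 8 were higher and 1 was lower (16.7% and 2.08%), with a median of 0.05. Of all genes, 3.14% were higher and 6.16% lower. The 8 include lepb, given with the leptin family above. admb and adma, which encode the vasodilator peptide adrenomedullin, had 94 and 536 counts (2.21 (1.90 to 2.55)) and 82 and 332 counts (1.72 (1.37 to 2.09)). pfkfb3, the enzyme that raises the activator of glycolysis, had 338 and 1287 counts and 1.63 (1.46 to 1.81), and igfbp1a, a growth factor-binding protein, 776 and 2104 counts and 1.14 (1.03 to 1.27). Glycolytic genes of the response were inside 2-fold, and pgk1, the phosphoglycerate kinase, had 4689 and 5133 counts and -0.16 (-0.22 to -0.11). egln3, a prolyl hydroxylase that hypoxia raises in mammals, was the lower member, with 82 and 44 counts and -1.18 (-1.75 to -0.65).

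Genes of DNA replication had RNA ratios mostly below 0. Of 65 replication genes 5 were lower, 0 higher and 5 above 0 (median -0.48), and of 75 genes of mitosis 1 was lower, 1 higher and 17 above 0 (median -0.33). The lower genes are 7.69% and 1.33% of these lists, beside 6.16% of all genes. rrm2, the regulated subunit of ribonucleotide reductase, had 2285.7 and 1273.6 counts, a log2 ratio of -1.14 (-1.24 to -1.04) in RNA and -2.15 in footprints. mcm7, of the replicative helicase, had 611 and 351 counts and -1.09 (-1.29 to -0.90). pcna, the sliding clamp, had 4775 and 3051 counts and -0.94 (-1.01 to -0.87), and mki67, a marker of cycling cells, had 3452 and 2766 counts and -0.61 (-0.69 to -0.54), both inside 2-fold. The higher member was ect2, a regulator of cytokinesis, with 186.5 and 517.6 counts and 1.18 (0.93 to 1.43). Footprints of the same genes, as scaled here, lay lower than their RNA. Their median was -0.70 with 13 of 63 lower for replication, and -0.89 with 24 of 63 lower for mitosis.

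Of 13 genes encoded in mitochondrial DNA, 0 passed the size rule and 1 lay above 0 (median -0.27, centred on length -0.07). Their transcripts were among the most abundant per length in both libraries. mt-co1, cytochrome oxidase subunit I, was first in both and was the member above 0, at 13401 FPKM in siblings and 17957 in mutants (log2 ratio of counts 0.34 (0.33 to 0.35)). Of the 30 genes with the largest FPKM, 26 were shared by both libraries, and these 30 took 16.1% of sibling and 17.3% of mutant counts. Of 107 nuclear genes of the respiratory chain and ATP synthase, 4 were lower and 1 was higher (median -0.36, centred on length -0.17). These are 3.74% and 0.93%, beside 6.16% lower and 3.14% higher of all genes. cox7a1 and cox6a2, muscle forms of cytochrome oxidase subunits, had 103 and 22 counts (-2.50 (-3.26 to -1.85)) and 164 and 55 counts (-1.86 (-2.34 to -1.42)).

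Several genes of sterol synthesis and handling were lower. Cells make cholesterol from acetyl-CoA through mevalonate and lanosterol. Of 35 genes of cholesterol synthesis and handling 12 were lower (34.3%, beside 6.16% of all genes) and 0 higher (median -0.40). ebp and dhcr7, late enzymes of the pathway, had 168 and 50 counts (-2.03 (-2.53 to -1.58)) and 373.0 and 171 counts (-1.42 (-1.69 to -1.15)), cyp51, the lanosterol demethylase, 244 and 120 counts (-1.31 (-1.65 to -1.0)), and hmgcs1, an early enzyme, 672 and 389 counts (-1.08 (-1.27 to -0.90)). ldlrb, a receptor of low-density lipoprotein, had 292 and 125 counts and -1.51 (-1.83 to -1.21). Of 29 members with enough footprints 1 was lower in footprints (median 0.07). In the annotated pathway of terpenoid backbone biosynthesis, 2 of 21 genes were lower, hmgcs1 among them, and 0 higher (median 0.0009). Liver markers were lower as given above, and the part of liver in these values was not tested.

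Of 69 genes of nucleotide and one-carbon metabolism, 12 were lower, 0 higher and 22 above 0 (median -0.19). The list overlaps with the pigment list, and its lowest member is pnp4b, given there. gamt and gatm, which make creatine in succession, had 5656 and 1434 counts and 5397 and 2012 counts, with log2 ratios of -2.27 (-2.36 to -2.19) and -1.72 (-1.79 to -1.64). ahcy, which hydrolyses S-adenosylhomocysteine after methylation, had 18804 and 10510 counts and -1.13 (-1.17 to -1.10), and mat2ab, which makes S-adenosylmethionine outside the liver in mammals, had 996 and 423 counts and -1.53 (-1.70 to -1.36). Of 44 genes of glycolysis 3 were lower and 1 was higher, pfkfb3 (median -0.11). These are 6.82% and 2.27%, beside 6.16% lower and 3.14% higher of all genes. The lower ones were pklr, the pyruvate kinase of liver and red cells, with 1713 and 270 counts and -2.96 (-3.15 to -2.77), gck, the glucokinase of liver, with 329 and 14 counts and -4.80 (-5.74 to -4.08), and aldoca, an aldolase of the nervous system, with 283 and 97 counts and -1.83 (-2.19 to -1.50). Liver markers were lower as given above, and the part of liver in the nucleotide, one-carbon and glycolysis values was not tested.

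Most developmental signalling genes were inside 2-fold. Of 61 Notch and Wnt genes 1 was higher, wif1, a secreted Wnt inhibitor, with 427 and 1255 counts and 1.26 (1.10 to 1.42), and 0 were lower. Of 71 genes of Fgf, Hedgehog, Bmp and retinoic acid signalling, 2 were higher, the secreted antagonists fstb (309 and 864 counts, 1.19 (1.0 to 1.38)) and chrd (37 and 109 counts, 1.25 (0.71 to 1.84)), and 1 was lower. That was fgf19, which has a role in eye and brain development and in bile acid control, with 180 and 3 counts, 63.2-fold lower (24.8 to 360). pappaa, the protease that frees insulin-like growth factors from their binding proteins, had 12 and 91 counts and 2.58 (1.75 to 3.63). Of 46 clock genes 2 were higher and 2 lower (4.35% each, beside 3.14% higher and 6.16% lower of all genes). Among them were arntl2, a partner of Clock, with 109 and 322 counts and 1.26 (0.95 to 1.60), and cry5, a photolyase-like gene induced by light, with 526.7 and 200 counts and -1.69 (-1.93 to -1.45).

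Few genes of vessels passed the size rule. Of 49 endothelial genes 2 were higher and 1 was lower (4.08% and 2.04%, beside 3.14% and 6.16% of all genes). lyve1a, a marker of lymphatic and venous endothelium, had 39 and 243 counts, a log2 ratio of 2.33 (1.85 to 2.87) in RNA and 1.91 in footprints. vwf, von Willebrand factor, had 119 and 302 counts and 1.05 (0.74 to 1.37), but 0.98 after centring on length. abcb4, a drug efflux pump of the blood-brain barrier in zebrafish that is also expressed in other organs, had 2388 and 973 counts and -1.59 (-1.70 to -1.48).

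Single genes with the largest ratios were ranked over the whole table, without digestive markers. Among the 15 highest were 3 members of the ms4a17a family and a nuclear envelope gene. bmb (brambleberry), needed for fusion of nuclei in early zebrafish embryos, had 29 and 1011 counts, 28-fold higher (19.7 to 42.7), and its footprints had a log2 ratio of 4.17 (3.53 to 5.0). vtg7, a vitellogenin yolk precursor, had 8 and 229.8 counts and a log2 ratio of 4.47 (3.55 to 5.78). lgals1l1, a galectin, had 103 and 894 counts and 2.82 (2.53 to 3.13) in RNA, and 0.08 in footprints, so its RNA difference was not seen there. jac9, a jacalin-domain gene, had 9.3 and 116.5 counts and 3.28 (2.39 to 4.49), and plekhs1, a gene with a pleckstrin homology domain, 9 and 99 counts and 3.09 (2.18 to 4.34).

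Among the 15 lowest, several are known from digestive organs in fish or mammals although they were not in the lists, such as cpo, a carboxypeptidase (605 and 5 counts, -7.08 (-8.84 to -5.98)), lct, the lactase (1085.8 and 29 counts, -5.50 (-6.11 to -4.99)), and the P450 gene cyp2n13 (2147 and 30 counts, -6.43 (-7.03 to -5.94)). apoda.2, an apolipoprotein D, had 3948 and 117 counts and was 41.2-fold lower (34.4 to 50.2), with a footprint log2 ratio of -5.26. elovl2, the elongase of polyunsaturated fatty acids, had 863 and 22 counts and -5.56 (-6.27 to -4.98). he1.1, a hatching enzyme, had 1368.0 and 25.9 counts and -5.99 (-6.63 to -5.46), and ebi3, a cytokine subunit, 119 and 3 counts and -5.39 (-7.90 to -4.02). ctsbb, a cathepsin B paralog, had 404 counts in the sibling and 0 in the mutant library, at least 165-fold lower with a floor of 3 counts per library.

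The ms4a17a genes encode membrane proteins with 4 passes, related to the CD20 family of mammals. Of 16 members found, 8 reached the count minimum, and of these 6 were higher and 1 was lower. These are 75% and 12.5%, beside 3.14% higher and 6.16% lower of all genes. Members such as ms4a17a.12 reached the minimum only through their mutant counts, so the number of higher members depends partly on this filter. ms4a17a.12 had 2.5 and 231.3 counts, a log2 ratio of 5.97 (4.54 to 8.82) in RNA and 3.13 in footprints, and ms4a17a.11, the most counted member, had 267 and 1481 counts and 2.18 (1.99 to 2.37). ms4a17a.17 was the lower one, with 108 and 25 counts and -2.38 (-3.09 to -1.77). Members are similar in sequence, and values of single members are uncertain where reads could be shared.

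Homozygous mutants share the chromosome copy on which the deletion arose, so genes beside noc4l were looked at separately. Among 25 genes on each side in the order of the RefSeq annotation of the assembly GRCz12tu, 26 were measured, 1 was higher, 3 were lower and the median log2 ratio was 0.05. The lower ones were gstt1b, a glutathione transferase (880 and 290 counts, -1.89 (-2.09 to -1.70)), ddt, D-dopachrome tautomerase (1117 and 649 counts, -1.08 (-1.22 to -0.94)), and si:dkey-11o18.5 (187 and 24 counts, -3.23 (-3.93 to -2.64)), and the higher one was the arrestin-domain gene arrdc1b (44 and 117 counts, 1.11 (0.61 to 1.65)). The share of 3 in 26 stands beside 6.16% lower genes over the whole table.

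KEGG pathways were read from the annotation in the deposited tables, for 6687 measured genes, of which 2.45% were higher and 7.15% lower, and 206 pathways with at least 20 of them. By share of higher genes, dilated and hypertrophic cardiomyopathy came first, with 9 of 34 genes each (26.5%), 0 and 1 lower, and medians of 0.30 and 0.27. Their members ttn.1, ttn.2, tnnt2c and lama2 also stand in the muscle and matrix lists above. ECM-receptor interaction had 9 of 101 genes higher and 4 lower, with a median of 0.46, and fn1b, lama2 and vwf were among the 9. Aminoacyl-tRNA biosynthesis had 4 of 44 higher, the synthetases named above, with a median of 0.40. Arachidonic acid metabolism had genes at both ends, with 5 of 43 higher, including ptgs2a and ptges, and 16 lower.

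Footprints gave a further readout of the genes called in RNA, from separate heads of the same stage and genotypes. Of the 541 genes with higher RNA, 368 had at least 100 footprints, and 104 of these were also higher in footprints (28.3%), 260 were inside 2-fold and 4 were lower, with a median footprint log2 ratio of 0.56. Of the 1062 genes with lower RNA, 526 had enough footprints, and 202 were also lower (38.4%), 323 inside 2-fold and 1 higher, with a median of -0.64. Over the 14455 genes measured in both assays, 1.74% were higher and 3.08% lower in footprints. All these numbers of footprint calls depend on the footprint scaling used here. The shared genes were 41.3% of all 252 genes with higher and 45.4% of all 445 with lower footprints. Matrix and protease genes such as fn1b and timp2b were in the shared set, and muscle genes such as ttn.1 and ttn.2 in the set that was not shared.

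**Figure D5:**
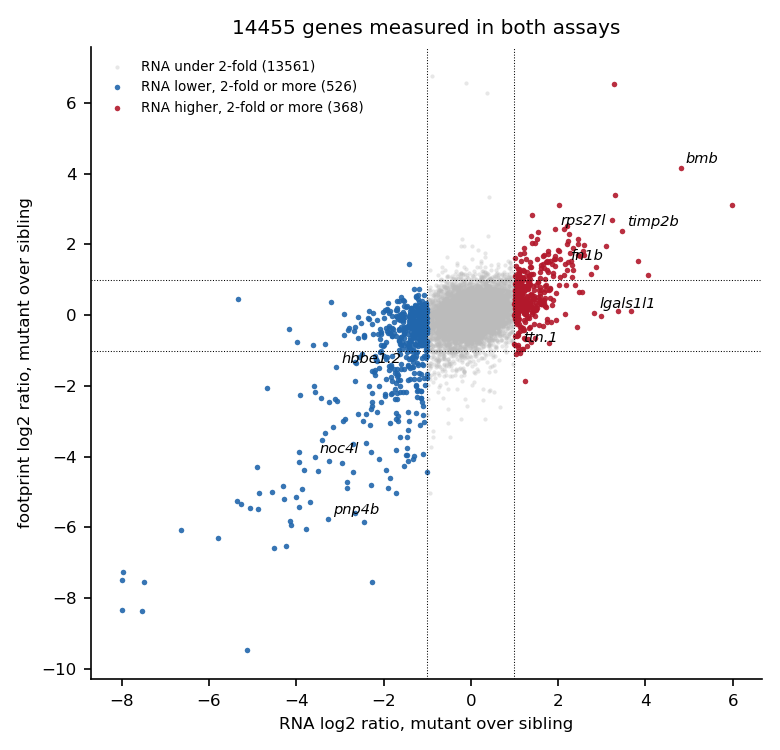
Log2 ratio of mutant to sibling in RNA (horizontal axis) and in footprints (vertical axis) for the 14455 genes measured in both assays, with dotted lines at 2-fold. Red points are genes with higher RNA (368) and blue points with lower RNA (526), and ttn.1, at 1.08 in RNA and -0.89 in footprints, lies on the other side of 0 from fn1b, at 2.15 and 1.45.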

How the data were processed

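Poly(A) RNA of heads at 5 dpf was sequenced by the authors, with 1 library for each genotype, and ribosome footprints came from separate heads. Alignment with HISAT2 and counting with featureCounts are named in the submitters' processing notes. The versions of both tools, the genome build and the annotation release are not given in the sources read. For each gene and library, the authors deposited an estimated count (9.20% of those used are not whole, within 0.005), and also an FPKM, from which transcript length was taken. Their log2 fold change, p-value and FDR columns, and 6 per-sample columns, were not used. Symbols came from the deposited footprint table for 25195 IDs and from an annotation table for 2, and 1465 assembler IDs have none.

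RNA and footprint counts were each scaled by TMM (edgeR 4.0.16 in R 4.3.3, factors 0.972 and 1.03 for RNA, 0.781 and 1.28 for footprints). Then 0.5 was added, and genes under 100 counts summed over the libraries were left out. Ratios have exact conditional binomial intervals and counts exact Poisson intervals at 95%, and reads without molecular identifiers are not independent molecules, so both cover counting error only. A library at 0 was set to a floor of 3 counts. Length centring subtracted the median ratio in each of 20 length classes. Python 3.11.15, numpy 2.4.6, pandas 2.3.3, scipy 1.17.1 and matplotlib 3.10.9 did the rest.

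The lists and members were chosen with earlier results of these data known, and 122 of their symbols were not found. The genes named are noc4l, the study's markers, list members past 2-fold, the 4 most counted and the 4 with the largest ratio of each list, the 15 with the largest ratio each way outside digestive lists (a usual symbol, at least 5 CPM in the higher library) and neighbours of noc4l past 2-fold. Exceptions are stated. Alternatives were other scalings (DESeq2 1.42.0 size factors, total counts, TMM without digestive markers), other count minimums, 5 counts added, FPKM with 1 added and, chosen after seeing the data, length-centred ratios. Promoter motifs were planned and not analysed here.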

Additional observations from a re-analysis of the deposited data

How the results depend on the processing

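The number of genes past the size rule followed the count minimum. A minimum of 10 counts gave 1233 higher and 2051 lower genes, no minimum gave 1885 and 2935, and a minimum of 1000 gave 152 and 325, because more or fewer genes are then measured. Under the other settings the counts stayed within 1.5 times of 541 and 1062, with 669 and 955 for total counts, 541 and 1062 for DESeq2 size factors, 536 and 1065 for TMM without digestive markers, 493 and 1026 with 5 counts added, 437 and 769 for deposited FPKM with 1 added, and 550 and 1050 for length-centred ratios. Of 454 genes called among the 814 that the naming rule allows, 431 remained past 2-fold with total counts, 454 with DESeq2 size factors, 453 without digestive markers, 442 with 5 counts added, 364 with FPKM and 432 with length-centred ratios, and none reversed. The median of a list changed sign in at most 5 of 82 lists per setting, and in 7 of 81 with a minimum of 1000, in each case from a median of at most 0.19 in size. No paired analysis was possible because each genotype has 1 library, and for the same reason no library could be left out. The difference between fish of 1 genotype is not measured, and at 100 counts over both libraries the counting interval of a ratio spans more than 2-fold for genes such as galn (35 and 87 counts, 1.01 (0.44 to 1.63)).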

Other observations

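Transporter genes were read outside the digestive lists. Of 322 solute carriers 30 were lower (9.32%, beside 6.16% of all genes) and 7 higher (median -0.12). slc26a3.2, a chloride-bicarbonate exchanger, had 1196 and 147 counts, sibling first, and -3.31 (-3.58 to -3.07) on the log2 scale. slc34a2a, a phosphate transporter, had 1048 and 275 counts and -2.22 (-2.42 to -2.03), and slc28a1, a nucleoside transporter, had 490 and 37 counts and -4.0 (-4.54 to -3.54). These are known from gut or kidney in mammals, and the digestive markers lower beside them are given above. slc16a9a, a carrier of monocarboxylates and carnitine, was higher, with 85 and 425 counts and 2.02 (1.69 to 2.38) in RNA and 1.82 in footprints. Of 120 ion channel genes 4 were higher and 1 was lower (3.33% and 0.83%, beside 3.14% and 6.16% of all genes, median 0.12). The lower one was kcnh4b, a potassium channel, with 174 and 87 counts and -1.29 (-1.68 to -0.91).

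The RNA table holds 1465 loci with an assembler's name and no symbol. Of these 783 were measured, 71 were higher (9.07%) and 61 lower (7.79%), against 2.86% and 6.08% of 16460 genes with Ensembl IDs. They took 2.00% of sibling and 2.78% of mutant counts. Of the 20 with the most counts, 0 were lower and 12 higher (median 1.31 on the log2 scale). The most counted of these that was higher, MSTRG.14546, chosen after its values were seen, had 4073 and 24175 counts and a log2 ratio of 2.28, and the deposited description names it Syncytin-1, an envelope protein of retroviral origin. Of the mutant counts of these loci 24.4% were not whole, against 8.40% for Ensembl IDs.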
